A study of Mus musculus with 12 samples.

Results

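The major urinary protein (Mup) genes were taken as every row of the liver count tables whose symbol is Mup followed by digits only, which gave 20 genes of 23420. Counts were obtained with QuantSeq, an RNA-seq method that reads 1 fragment near the 3′ end of each polyadenylated transcript, from livers of 12 mice of about 20 weeks of age, taken at ZT10, late in the light phase. The 4 groups of 3 mice were wild type females (WTF), Siah2 KO females (KOF), wild type males (WTM) and Siah2 KO males (KOM). Siah2 encodes an E3 ubiquitin ligase, and the study asked whether its loss alters gene expression in liver at this time of day, in both sexes. All mice carried the C57BL/6 background and had free access to normal chow. The KO mice lacked Siah2 in the whole body, and the related wild type and KO lines had been set up from a heterozygote intercross, so line and genotype cannot be told apart. Libraries are named by mouse number. The deposited protocol mentions RNA pooled from 3 mice, while the study's methods describe pooling for its time series and separate livers here, and p-values measure only the spread between these libraries.

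Mup genes encode small lipocalins, barrel-shaped proteins that hold volatile pheromones, which hepatocytes secrete into blood and which the kidney passes into urine for scent marking. Male-pattern pulses of growth hormone, which signal through JAK2 and STAT5b, and androgens are known to raise their transcription in liver, and adult males excrete far more of the protein than females. Mup20 encodes darcin, a male pheromone, and Mup4 and Mup5 are best known from nasal and salivary glands.

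The 20 genes lie in 1 cluster, chr4:59956804-62150841 of GRCm38.p6, the assembly of the RefSeq gene table. Mup20 (chr4:62011337-62054143), Mup3 (chr4:62083476-62087317) and Mup21 (chr4:62147832-62150841) stand side by side at one end of the cluster. The central block holds near-identical copies, among them Mup7 (chr4:60066469-60070475), Mup1 (chr4:60498012-60501960), Mup12 (chr4:60737381-60741416) and Mup14 (chr4:61300037-61304089). Because reads came from 3′ ends, the last 300 bases of each gene's coding transcript in the GENCODE M1 set were split into overlapping windows of 100 bases, the window length being a choice made here. Mup3, Mup20, Mup21, Mup4, Mup5 and Mup6 shared none of their 201 windows with another gene. The other 14 members each shared windows with 13 or 14 other genes. No window of Mup1, Mup14, Mup10, Mup15, Mup13, Mup8, Mup2 or Mup19 was unique. Unique windows made up 0.995% in Mup7, 24.9% in Mup12, 32.3% in Mup16, 56.7% in Mup9, 63.7% in Mup11 and 93.0% in Mup17. Whether the authors' counting divided or dropped reads from shared windows is not given in the sources. The separate values of these 14 genes are therefore uncertain, and their sum is given beside them. If such reads were dropped, that sum and the family sum are too low.

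RefSeq promoters, 250 bases before to 50 bases after the annotated start, were at hand for 13 of the 20 genes. Those of 4 genes are shown because they differ in how far they followed sex. Mup3 held most Mup counts in females, and Mup21 and Mup14 were called higher in males of both genotypes. Mup10 was called in Siah2 KO but not in wild type mice. Capitals mark matches on either strand to the TATA-like letters TATATAA, whose reverse complement TTATATA overlaps it in Mup10. Counted in bases before the annotated start, the first capital lies at 31 in Mup10, 11 in Mup3, 8 in Mup21 and -12 (after the start) in Mup14. The windows are therefore offset against each other and do not cover the same stretch. The windows are chr4:62087268-62087567 for Mup3, chr4:62150792-62151091 for Mup21, chr4:61303949-61304248 for Mup14 and chr4:60582106-60582405 for Mup10, all read 5′ to 3′ on the minus strand.
Mup3: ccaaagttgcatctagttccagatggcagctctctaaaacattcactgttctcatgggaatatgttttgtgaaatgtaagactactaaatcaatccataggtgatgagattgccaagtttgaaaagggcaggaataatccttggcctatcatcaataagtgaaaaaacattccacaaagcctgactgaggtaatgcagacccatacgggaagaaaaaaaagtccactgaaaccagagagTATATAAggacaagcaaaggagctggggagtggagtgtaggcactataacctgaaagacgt
Mup21: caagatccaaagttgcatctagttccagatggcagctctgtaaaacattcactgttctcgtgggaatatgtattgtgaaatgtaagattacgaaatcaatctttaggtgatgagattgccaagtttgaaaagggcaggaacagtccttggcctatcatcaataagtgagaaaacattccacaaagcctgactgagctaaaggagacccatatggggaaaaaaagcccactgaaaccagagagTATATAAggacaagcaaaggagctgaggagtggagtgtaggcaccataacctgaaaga
Mup14: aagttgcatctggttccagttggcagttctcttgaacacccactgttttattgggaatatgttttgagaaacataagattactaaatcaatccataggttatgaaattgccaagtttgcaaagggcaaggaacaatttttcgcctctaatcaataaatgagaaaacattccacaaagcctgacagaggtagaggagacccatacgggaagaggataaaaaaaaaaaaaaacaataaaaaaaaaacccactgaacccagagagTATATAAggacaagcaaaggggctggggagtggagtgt
Mup10: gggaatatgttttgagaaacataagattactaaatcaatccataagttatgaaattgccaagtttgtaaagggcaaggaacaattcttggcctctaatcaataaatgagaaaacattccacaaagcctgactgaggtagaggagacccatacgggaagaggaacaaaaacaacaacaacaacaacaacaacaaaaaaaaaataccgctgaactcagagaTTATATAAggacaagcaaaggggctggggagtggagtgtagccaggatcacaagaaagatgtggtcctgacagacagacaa
TATATAA occurred in 12 of the 13 Mup promoters against 3.24% of 32851 promoters in the table. These letters were picked after the sequences had been read. TATAAA, which overlaps TATATAA where another A follows, occurred in 2 of 13 against 13.6% of all promoters. Neither the STAT5 letters TTCNNNGAA (8.30% of all promoters) nor the C/EBP letters TTGCNNAA (10.8%) occurred in these 13 windows on either strand. Only exact letters in these windows were searched, so sites elsewhere or with other letters are not excluded. The 13 windows belong to closely related genes and are not 13 separate observations. Aligned over their shared bases, the promoters of Mup3 and Mup21 were 93.9% identical, those of Mup14 and Mup10 93.5%, and those of Mup3 and Mup14 88.0%. Over all 78 pairs identity ran from 83.0% to 100%.

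Library totals ran from 1293688 to 4056144 counts, so 3 counts equalled 0.740 to 2.32 CPM, the unit for counts relative to the library total after TMM scaling, which allows for differences in composition between libraries. Because 3′ counting gives 1 fragment per transcript, CPM of different Mup genes is compared here without a length correction. Xist (70.2 to 112 CPM in females) and Ddx3y (54.5 to 70.1 CPM in males) fitted the labelled sex of all 12 libraries. Siah2 was 12.1 to 27.0 CPM in wild type and 9.31 to 17.0 CPM in KO libraries, and 3′ reads need not lie in the deleted part, so this does not check the genotype. Wild type female 1091 stood apart: without it the number of all genes called between KO and wild type females went from 0 to 936. The 6 hepatocyte markers summed to 24493 to 38970 CPM in all libraries, and lymphocyte markers summed to at most 6.75 CPM. Of 5 red blood cell markers in the tables, 4 globin genes were at 0 in all 12 libraries. Such zeros need not mean absent RNA, since the handling of reads that match several genes is not given in the sources. Alas2 was 8.39 to 24.9 CPM in females and 83.4 to 153 CPM in males. It was called higher in males in both genotypes (log2 fold change 2.02 in wild type and 3.15 in KO mice). Its part in the Mup results was not tested. Kupffer cell markers summed to 279 to 715 CPM in females, 57.7 to 516 CPM in wild type males and 81.6 to 173 CPM in KO males, and their part in the Mup results was not tested. In whole liver, fewer cells of a type and less RNA per cell cannot be told apart.

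Mup RNA was several times more abundant in males than in females, in both genotypes. The family sum was 1280, 1564 and 1081 CPM in the 3 wild type females and 768, 945 and 1700 CPM in the 3 Siah2 KO females. In males it was 9495, 6530 and 8782 CPM in wild type and 7063, 6063 and 7108 CPM in KO mice. All 6 males lay above all 6 females, while the genotypes overlapped within each sex. The mean was 1308 ± 243 (SD, n = 3) CPM in wild type females, 1138 ± 495 (SD, n = 3) CPM in KO females, 8269 ± 1547 (SD, n = 3) CPM in wild type males and 6745 ± 591 (SD, n = 3) CPM in KO males. The ratio of means, male to female, was thus 6.32 in wild type and 5.93 in KO mice. No test was made on the sum.

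**Figure D1:**
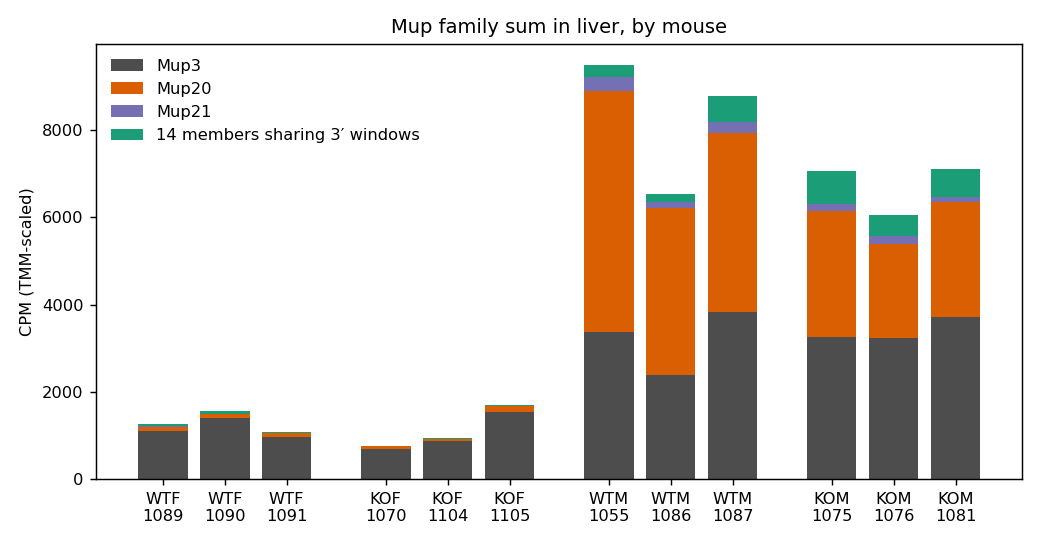
Stacked bars give the CPM of Mup3, Mup20, Mup21 and the 14 members that share 3′ windows, 1 bar per mouse (3 mice per group). Mup4, Mup5 and Mup6 together never passed 1.95 CPM and are not drawn; Mup3 makes up most of each female bar, and the Mup20 block is largest in the 3 wild type males.

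By assigned counts, Mup3 was the most abundant member in both female groups and in KO males, and Mup20 in wild type males. All 3′ windows of Mup3 and Mup20 are unique. Their shares of the family would therefore be too high if reads shared among other members were dropped. Mup3 supplied 86.2% to 93.9% of Mup counts in females, 35.4% to 43.5% in wild type males and 46.1% to 53.4% in KO males. Mup20 supplied 4.79% to 8.78% in females, 46.7% to 58.6% in wild type males and 35.5% to 41.0% in KO males. In all 3 wild type males Mup20 was therefore the first member and Mup3 the second, while in all 3 KO males the order was the reverse. The ratio of Mup20 to Mup3, which is free of library scaling, was 1.64, 1.61 and 1.07 in wild type males against 0.889, 0.664 and 0.701 in KO males, without overlap. In females it was 0.0627 to 0.0906 in wild type and 0.0510 to 0.0980 in KO mice, which overlapped. The 14 members that share 3′ windows supplied 3.04%, 2.90% and 6.93% of the family sum in wild type males and 10.8%, 8.17% and 9.07% in KO males. These shares did not overlap between the male genotypes, and no test was made on them. They, the order and the ratio of Mup20 to Mup3 all depend on the Mup20 level, so they are not separate results. The CPM sum of the 14 members did overlap between the male genotypes.

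By level, 8 members reached a mean of 10 CPM in at least 1 group (Mup3, Mup20, Mup21, Mup7, Mup14, Mup12, Mup1 and Mup15). A further 5 members had their highest group mean between 1 and 10 CPM (Mup8, Mup9, Mup10, Mup11 and Mup13). The remaining Mup4, Mup5, Mup6, Mup16 and Mup17 stayed under 1 CPM in each group mean. Mup2 and Mup19 had 0 counts in all 12 libraries. For assigned reads this allows a level of up to 0.740 to 2.32 CPM depending on the library, and covers counting error only. None of their 3′ windows was unique, so no upper limit holds if shared reads were dropped or given to another copy.

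**Figure D2:**
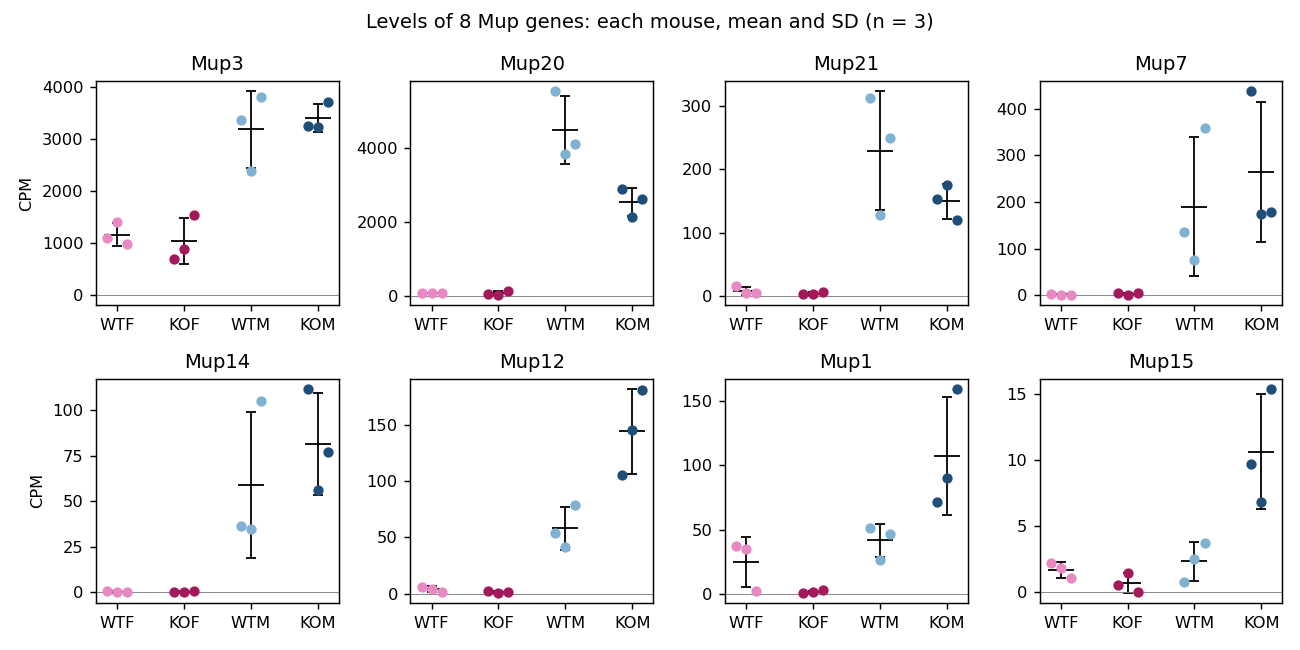
Points are CPM of single mice for 8 Mup genes in 4 groups (WTF, KOF, WTM, KOM), with the mean and SD (n = 3); each panel has its own linear axis from 0. Mup20 is lower in each of the 3 KO males than in each wild type male, Mup12, Mup1 and Mup15 are higher, and Mup1 is high in 2 of 3 wild type females.

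Between wild type males and females, the quasi-likelihood test of edgeR (Benjamini-Hochberg adjustment over all genes) called 6 of the 8 members tested higher in males and 0 lower. Of all 9335 genes tested, 0.707% were called higher in males. The 6 were Mup14, Mup7, Mup20, Mup21, Mup12 and Mup3, and in each the groups did not overlap, as held for 10.3% of all genes in that direction. The median log2 fold change of the 8 members was 4.34 and that of all genes tested was -0.05. Wild type females held 3, 0 and 1 counts of Mup14, 11, 4 and 5 of Mup7 and 17, 15 and 4 of Mup12. These 3 genes passed the filter for low counts only with the counts of the males, which favoured a call in that direction.

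Mup20, the darcin gene, was 96.6, 88.7 and 88.7 CPM in wild type females and 5528, 3829 and 4101 CPM in wild type males. The spread among the females was small and every male was far above it. Its log2 fold change was 5.62 (SE 0.31, edgeR adjusted p = 2.31e-05). Mup21, its neighbour with unique 3′ windows, was 15.4, 4.75 and 4.39 CPM in females and 312, 128 and 249 CPM in males. That is a log2 fold change of 4.82 (SE 0.54, edgeR adjusted p = 0.00149). One female, 1089, lay above the other females in Mup21 but far under the males.

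Mup3, the third neighbour, was already abundant in females. It was 1103, 1415 and 979 CPM in wild type females and 3365, 2383 and 3822 CPM in wild type males, which did not overlap. The log2 fold change was 1.45 (SE 0.29, edgeR adjusted p = 0.0383), the smallest of the 6 calls. Its call was lost without any 1 of 5 mice (edgeR adjusted p 0.0611 to 0.235) and was kept without female 1091 (edgeR adjusted p = 0.00629). The other 5 calls held without any 1 of the 6 mice.

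Among members with shared windows, Mup7 was 3.93, 1.19 and 1.69 CPM in females and 135, 76.4 and 358 CPM in males (log2 fold change 6.40, SE 0.69, edgeR adjusted p = 0.00126). Mup14 was 1.07, 0 and 0.34 CPM in females, at or near the floor of 3 counts, and 36.3, 35.0 and 105 CPM in males. Every male was clearly above the floor. The fitted log2 fold change of Mup14 was 6.93 (SE 0.75, edgeR adjusted p = 0.00129). Mup12 was 6.08, 4.45 and 1.35 CPM in females and 53.7, 41.5 and 79.4 CPM in males (log2 fold change 3.87, SE 0.47, edgeR adjusted p = 0.00225).

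Mup1 and Mup10 were tested and not called. Mup1 was 37.6, 35.3 and 2.36 CPM in wild type females and 51.5, 27.0 and 47.0 CPM in wild type males, so females 1089 and 1090 lay within the male range. Its log2 fold change was 0.73 (SE 0.67, edgeR adjusted p = 0.659). Mup10 was 11.8, 11.6 and 0.67 CPM in females and 4.54, 3.00 and 4.58 CPM in males. In both genes female 1091 was low, and the other females were high. The log2 fold change of Mup10 was -0.98 (SE 0.75, edgeR adjusted p = 0.578), and without 1091 it was -1.52 (edgeR adjusted p = 0.0359), which is lower in males. The fit without 1091 called 311 of 9576 genes lower in males.

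**Figure D3:**
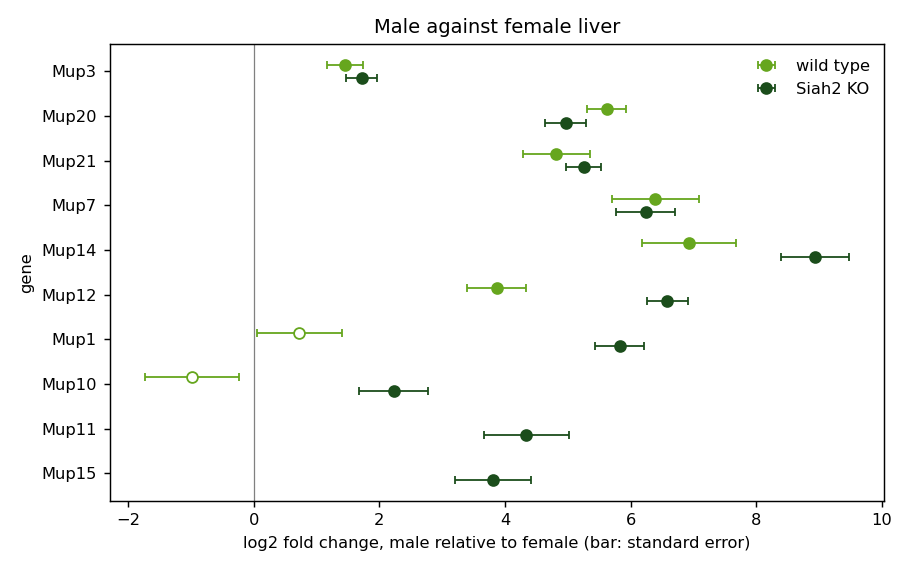
Points give the log2 fold change of each tested Mup gene, male relative to female, in wild type (light) and Siah2 KO mice (dark), with bars of 1 standard error from edgeR; filled points have an adjusted p under 0.05. All 10 genes tested in KO mice lie to the right of 0, while Mup1 and Mup10 are open points near 0 in wild type mice.

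Between Siah2 KO males and females, 10 of 10 members tested were called higher in males by edgeR, against 5.78% of all 9102 genes. None of the 10 overlapped between the sexes (15.3% of all genes in that direction). The median log2 fold change of the 10 was 5.11, and that of all genes tested was 0.00. Mup1, Mup12, Mup14, Mup10, Mup15 and Mup11 had at most 7 counts in any KO female. They passed the filter for low counts only through the KO males. That filter therefore favoured calls of higher in males, and the 10 of 10 and the median are no independent support. The KO comparison shares no mice with the wild type sex comparison, but each of its groups also enters a comparison of genotypes below.

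In KO mice Mup20 was 67.4, 45.3 and 138 CPM in females and 2893, 2150 and 2614 CPM in males (log2 fold change 4.97, SE 0.33, edgeR adjusted p = 1.32e-07). Mup21 was 2.99, 3.28 and 6.52 CPM in females and 154, 175 and 120 CPM in males (log2 fold change 5.25, SE 0.28, edgeR adjusted p = 1.63e-08). Mup3 was 687, 887 and 1541 CPM in females and 3255, 3241 and 3727 CPM in males (log2 fold change 1.72, SE 0.24, edgeR adjusted p = 0.000364). Mup3 again had the smallest log2 fold change of the 10. Female 1105 had the highest level of the 3 KO females in each of these neighbours.

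Mup1 was 1.36, 1.82 and 2.96 CPM in KO females and 71.8, 90.5 and 159 CPM in KO males. All 3 females were near the floor of 3 counts. Its log2 fold change was 5.82 (SE 0.39, edgeR adjusted p = 1.32e-07). Mup12 was 1.90, 0.73 and 1.78 CPM in females and 106, 146 and 182 CPM in males (log2 fold change 6.58, SE 0.33, edgeR adjusted p = 9.05e-09). Mup7 was 4.62, 0.73 and 5.33 CPM in females and 437, 175 and 179 CPM in males (log2 fold change 6.24, SE 0.47, edgeR adjusted p = 4.00e-07). These members of the central block had larger log2 fold changes than Mup20, but these rest on few counts in KO females. Counts were 5, 5 and 5 for Mup1, 7, 2 and 3 for Mup12 and 17, 2 and 9 for Mup7, against 248, 124 and 233 for Mup20.

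Mup15 was 0.54, 1.46 and 0 CPM in KO females and 9.68, 6.80 and 15.4 CPM in KO males (log2 fold change 3.81, SE 0.60, edgeR adjusted p = 0.000936). Mup10 was 0.54, 2.55 and 1.18 CPM in females and 5.58, 5.95 and 8.06 CPM in males (log2 fold change 2.23, SE 0.55, edgeR adjusted p = 0.0178), the call with the largest adjusted p of the 10. The call of Mup10 held without 4 of the 6 mice and had adjusted p of up to 0.112 without the others. The other 9 calls held without any 1 of the 6 mice. For Mup14 the KO females held 1 count in all against 747 in the KO males, a ratio of 661 after scaling for depth (exact 95% interval 118 to 26157, counting error only). Mup11 held 3 counts against 80, a ratio of 23.6 (exact 95% interval 7.79 to 117). Mup9 held 0 counts in KO females and 38 in KO males (11, 2 and 25 by mouse), so KO male 1076 lay under 3 counts. Pooled over mice, the ratio was at least 11.2 against a floor of 3 counts over the female group, with no interval given. Mup9 was not among the 10 members tested, and wild type females and wild type males each held 1 count.

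Within females, Siah2 KO and wild type mice gave 0 edgeR calls among the 4 members tested (with 0 at an unadjusted p under 0.05). edgeR called 0% of all 9465 genes, and 1478 genes had an unadjusted p under 0.05, 7.3% of all genes on the higher and 8.31% on the lower side. The log2 fold changes, KO relative to wild type, were 0.64 (SE 0.72) for Mup7, -0.12 (SE 0.37) for Mup20, -0.15 (SE 0.34) for Mup3 and -0.99 (SE 0.60) for Mup21, with edgeR adjusted p between 0.464 and 0.910. The groups overlapped in all 4 genes, and for Mup3 and Mup20 the KO females reached both lower and higher than the wild type females. The sign for Mup3 and Mup20 turned with the mouse left out, so no direction is given for them.

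Mup1 and Mup10 were too low in most female libraries for the filter and were not tested. Mup1 had 105, 119 and 7 counts in wild type females and 5, 5 and 5 counts in KO females, or 25.1 ± 19.7 (SD, n = 3) CPM against 2.05 ± 0.82 (SD, n = 3) CPM. The values overlapped through female 1091, at 2.36 CPM. DESeq2 called Mup1 lower in KO females (log2 fold change -3.65, DESeq2 adjusted p = 0.000724), 1 of 4 members to which it gave an adjusted p, against 1.55% of all genes called lower. Without the filter, edgeR called Mup1 (log2 fold change -3.68, adjusted p = 1.37e-12) and Mup10 (log2 fold change -2.49, adjusted p = 0.00248). Without female 1091, edgeR called both again, Mup1 with an adjusted p of 0.000471 and Mup10 with 0.00808. Of all genes, edgeR called 193 of 17177 lower without the filter and 430 of 9709 lower without 1091. Without any 1 of the 3 KO females the edgeR adjusted p of Mup1 lay between 0.325 and 0.375, and without 1089 or 1090 it did not pass the filter.

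The 14 members that share 3′ windows summed to 64.4, 54.9 and 8.43 CPM in wild type females and 9.78, 9.12 and 14.2 CPM in KO females. Mice 1089 and 1090 again stood above the other 4 females, and 1091 lay just below the 3 KO females. Mup1 was the largest single member of that sum in both mice.

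Within males, edgeR called 0 of 10 members tested and 0% of all 8823 genes, of which 357 had an unadjusted p under 0.05. At an unadjusted p under 0.05, 4 members were higher in KO males (Mup15, Mup1, Mup11 and Mup12), against 1.62% of all genes, and 2 were lower (Mup20 and Mup21), against 2.43%. The groups did not overlap in 5 members that were higher in KO males (those 4 and Mup10), against 4.24% of all genes. They did not overlap in 1 that was lower (Mup20), against 4.69%. The 5 higher members all share 3′ windows, so they may not be separate observations. Mup15 (1, 5 and 12 counts in wild type males) and Mup11 (2, 4 and 15) passed the filter for low counts through the KO males. That favoured higher values in KO males for these genes. DESeq2 called Mup1 and Mup12 higher and Mup20 lower among 18 members with an adjusted p, while it called 0.037% of 16219 genes in either direction. limma-voom called 0 members.

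Mup20 was 4486 ± 913 (SD, n = 3) CPM in wild type and 2552 ± 375 (SD, n = 3) CPM in KO males, and the highest KO male, at 2893 CPM, lay under the lowest wild type male, at 3829 CPM. Its log2 fold change was -0.82 (SE 0.17, edgeR adjusted p = 0.449, DESeq2 adjusted p = 0.0144). Leaving out 1 male in turn kept the log2 fold change between -0.90 and -0.63 and the edgeR adjusted p between 0.194 and 0.999. Mup21 was 230 ± 93.6 (SD, n = 3) CPM in wild type and 150 ± 27.6 (SD, n = 3) CPM in KO males, and wild type male 1086, at 128 CPM, lay inside the KO range. Its log2 fold change was -0.62 (SE 0.26, edgeR adjusted p = 0.9999). Mup3 was 3190 ± 735 (SD, n = 3) CPM against 3408 ± 277 (SD, n = 3) CPM, a log2 fold change of 0.09 (SE 0.17, edgeR adjusted p = 0.9999). Of these neighbours with unique windows, Mup20 alone was free of overlap between the male genotypes.

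Mup12 was 58.2 ± 19.3 (SD, n = 3) CPM in wild type and 145 ± 37.9 (SD, n = 3) CPM in KO males. Its log2 fold change was 1.29 (SE 0.25, edgeR adjusted p = 0.290, DESeq2 adjusted p = 0.00425). Mup1 was 41.8 ± 13.0 (SD, n = 3) CPM in wild type and 107 ± 46.0 (SD, n = 3) CPM in KO males (log2 fold change 1.37, SE 0.29, edgeR adjusted p = 0.481, DESeq2 adjusted p = 0.0200). In both genes each KO male was above each wild type male. Over the fits without 1 male, the log2 fold change stayed between 1.11 and 1.63 for Mup12 and between 0.98 and 1.60 for Mup1, with edgeR adjusted p of 0.265 or more.

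Mup15 was 0.76, 2.50 and 3.66 CPM in wild type males against 9.68, 6.80 and 15.4 CPM in KO males (log2 fold change 2.03, SE 0.49, edgeR adjusted p = 0.696). Mup11 was 1.51, 2.00 and 4.58 CPM against 7.44, 6.38 and 10.99 CPM (log2 fold change 1.46, SE 0.47, edgeR adjusted p = 0.9999). Both genes are low, at or under 3 counts in the smallest wild type male library. Mup7, the largest member of the central block, had a log2 fold change of 0.45 (SE 0.44), and Mup14 one of 0.41 (SE 0.36), with the male genotypes overlapping in both. Summed over the 14 members with shared windows, the level was 288, 189 and 608 CPM in wild type males and 759, 496 and 645 CPM in KO males. Wild type male 1087 lay within the KO range and the other wild type males lay below it.

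**Figure D4:**
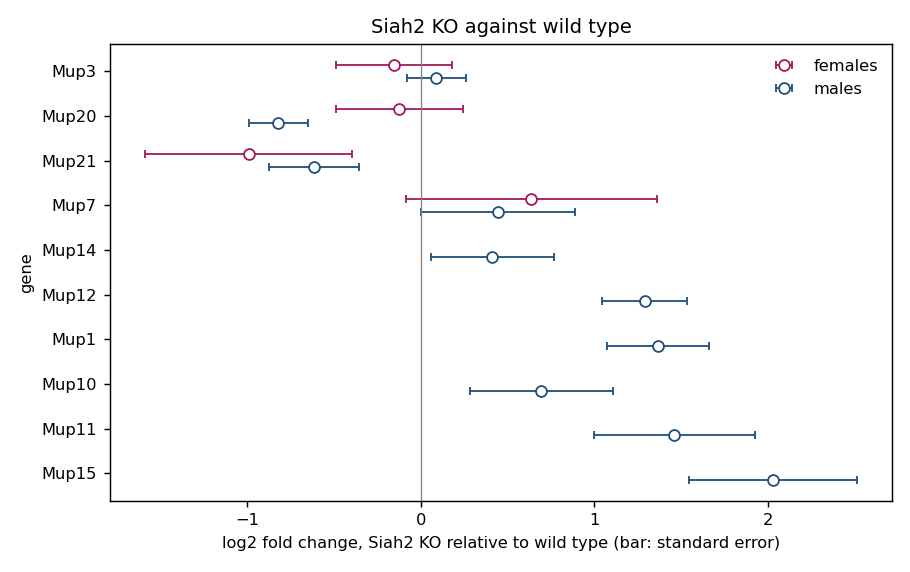
Points give the log2 fold change of each tested Mup gene, Siah2 KO relative to wild type, in females and males, with bars of 1 standard error from edgeR; open points have an adjusted p of 0.05 or more. In males Mup12, Mup1, Mup11 and Mup15 lie to the right of 1 and Mup20 lies to the left of 0, and only 4 genes could be tested in females.

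Whether the genotype difference itself differed between the sexes was tested as an interaction over all 12 mice: a negative value means that KO relative to wild type was lower in females than in males. edgeR called 1 of 11 members, Mup1, against 0.255% of all 9806 genes. The difference for Mup1 was -5.07 on the log2 scale (SE 0.97, edgeR adjusted p = 0.0474): its mean went from 25.1 to 2.05 CPM in females and from 41.8 to 107 CPM in males. Without any 1 of 11 mice its adjusted p was 0.0544 to 0.160, and without female 1091 it was 6.36e-05. The fit without 1091 called 522 of 10127 genes. DESeq2 called Mup1 (adjusted p = 0.00324) and Mup12 (difference -2.71, adjusted p = 0.00643), 2 of 7 members against 3.89% of all genes. By limma-voom the adjusted p of Mup1 was 0.197.

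Mup12, Mup15 and Mup10, which also share windows, had negative differences that did not pass in edgeR: the difference was -2.69 (SE 0.67, edgeR adjusted p = 0.0946) for Mup12, -3.16 (SE 0.97, edgeR adjusted p = 0.143) for Mup15 and -3.20 (SE 1.04, edgeR adjusted p = 0.172) for Mup10. For Mup20 it was 0.69 (SE 0.44, edgeR adjusted p = 0.524) and for Mup3 -0.24 (SE 0.40, edgeR adjusted p = 0.851). Mup20 was therefore not shown to respond differently in the sexes, although its genotypes were separate in males alone. Because Mup1 shares all of its 3′ windows with other members, the call cannot be placed on Mup1 itself rather than on another copy.

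A list of 27 growth hormone, STAT5 and Mup regulators was examined beside the family. edgeR called 0 of 25 tested between genotypes in females and 0 of 23 in males. At an unadjusted p under 0.05, which 1478 of 9465 genes reached in females and 357 of 8823 in males, the females had 4 (Jak2, the kinase of the growth hormone receptor, Bcl6, a repressor of STAT5 targets, and the transcription factors Foxa3 and Cebpb) and the males had 1 (Bcl6). Foxa3 was 170 ± 42.3 (SD, n = 3) CPM in wild type and 54.6 ± 16.2 (SD, n = 3) CPM in KO females (log2 fold change -1.62, SE 0.29, edgeR adjusted p = 0.0793, DESeq2 adjusted p = 0.000293), without overlap. In males Foxa3 was 155 ± 28.6 (SD, n = 3) against 175 ± 46.2 (SD, n = 3) CPM. Stat5b, the main STAT5 of liver, had a log2 fold change of -0.11 (SE 0.25) in females and -0.08 (SE 0.22) in males. Bcl6 in males was 77.2, 4.99 and 67.8 CPM in wild type and 19.0, 27.6 and 11.97 CPM in KO mice, so 1 wild type male lay under all KO males.

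Between sexes, 1 of 23 regulators was called in wild type mice and 5 of 23 in KO mice, while edgeR called 1.39% and 11.5% of all genes in either direction. Prlr, the prolactin receptor, was lower in males in both genotypes (log2 fold change -1.69, edgeR adjusted p = 0.0195 in wild type, and -1.81, edgeR adjusted p = 3.83e-05 in KO mice). Hnf4a, Foxa1, Foxa3 and Zbtb20, which encode liver transcription factors, were called higher in KO males and not in wild type males. The interaction was not called by edgeR for any of these 4 (adjusted p 0.0631 to 0.976), and DESeq2 called it for Foxa3 (adjusted p = 0.00156).

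Of 10 male-biased growth hormone targets, 9 of 9 tested were called higher in males in each genotype by edgeR, with a median log2 fold change of 4.61 in wild type and 6.10 in KO mice. Of 12 female-biased targets, 9 of 11 tested were lower in wild type males and 8 of 8 in KO males. These lists were chosen for known sex bias, so their direction between sexes is no independent evidence. Between genotypes edgeR called 0 of them in either sex. In females 1 of 5 male-biased targets tested was lower at an unadjusted p under 0.05, against 8.31% of all genes. That was Serpina1e, a serpin with male-biased expression, at 163 ± 80.1 (SD, n = 3) CPM in wild type and 39.5 ± 22.4 (SD, n = 3) CPM in KO females (log2 fold change -2.04, SE 0.50, edgeR adjusted p = 0.117, DESeq2 adjusted p = 0.00256). Of the female-biased targets, A1bg was lower in KO females by DESeq2 and not by edgeR (log2 fold change -3.20, SE 0.69, edgeR adjusted p = 0.0962, DESeq2 adjusted p = 0.0189). In males 0 of 9 male-biased targets tested had an unadjusted p under 0.05, with a list median of 0.38 against -0.01 over all genes. The median of the 5 tested in females was -0.82 against -0.03 over all genes. Elovl3, a fatty acid elongase, was 245 ± 96.1 (SD, n = 3) CPM in wild type and 315 ± 66.8 (SD, n = 3) CPM in KO males.

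Other members of the lipocalin family did not follow the Mup pattern of higher levels in males. Of 12 other lipocalins, edgeR called 0 of 7 tested higher and 1 lower in wild type males, and 0 of 8 higher and 4 lower in KO males. Apom, the apolipoprotein that carries sphingosine 1-phosphate, was 265 ± 31.8 (SD, n = 3) CPM in wild type females and 75.2 ± 7.59 (SD, n = 3) CPM in wild type males (log2 fold change -1.81, SE 0.23, edgeR adjusted p = 0.00320). In KO mice Apom, Ptgds, Orm2 and Orm3 were called lower in males, with log2 fold changes from -3.11 to -1.80. Between genotypes 0 lipocalins were called, and 3 had an unadjusted p under 0.05 (Ptgds and Ambp in females, Apom in males).

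Among 6699 genes whose mean was 10 CPM or more, 5 outside the family had the profile most like the Mup family sum over the 12 mice, by the root mean square difference of log2(CPM + 1) centred on each gene's mean. These were Col5a3 (0.41), Serpine2 (0.42), Alas2 (0.44, the red blood cell marker above), Gstp1 (0.45) and Cyp7b1 (0.49). Cyp7b1, an oxysterol hydroxylase and one of the male-biased list, was 30.3 ± 6.67 (SD, n = 3) CPM in wild type females, 29.2 ± 9.87 (SD, n = 3) CPM in KO females, 223 ± 91.4 (SD, n = 3) CPM in wild type males and 300 ± 19.0 (SD, n = 3) CPM in KO males. All 5 had higher means in both male groups than in both female groups, and the likeness rests mainly on that difference between sexes.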

How the data were processed

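Deposited counts per gene came from 12 liver libraries; per the labels' processing notes the authors' tools included STAR and DESeq with build mm10 (no versions named), and the study's methods describe trimming, mapping and counting on a commercial cloud platform. The annotation and the handling of reads that match several genes are not given in the sources used. The 2 tables, one per sex, were joined by symbol (23420 rows each, of which 27 had symbols turned into dates and were kept as listed), and 0 per-sample columns were left unused. Columns of the authors' own comparisons were not used.

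CPM used library totals scaled by TMM over all 12 libraries. Tests used edgeR 4.0.16 (filterByExpr, TMM, glmQLFit and glmQLFTest, two-sided, Benjamini-Hochberg over all genes tested, threshold 0.05), on the 6 libraries of each comparison or, for the difference between the sexes, on all 12. SE is that implied by the F statistic. Alternatives were DESeq2 1.42.0, limma-voom (limma 3.58.1), RLE scaling, totals without the ribosomal gene Rn45s (5.68% to 17.9% of counts) and the Mup rows, no filter beyond 1 count, a fit of all 12 mice, and each mouse left out. Scripts were tested on simulated data. Totals of 1293688 to 4056144 counts limit genes of a few counts.

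All Mup rows are named, those with a group mean of at least 10 CPM by mouse; listed non-members are named where called or, between genotypes, at an unadjusted p under 0.05, except 1 listed gene that is not reported here. The members and lists were chosen with earlier results of these data known. Sequences, positions and promoters are RefSeq's (GRCm38.p6, the mm10 assembly; 20 of 20 positions and 13 of 20 promoters matched by symbol), and 3′ windows come from GENCODE M1 transcripts matched by symbol, though Mup symbols have changed between releases.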

Additional observations from a re-analysis of the deposited data

Results flagged for a closer look

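The change with Siah2 loss in counts assigned to Mup1 differed between females and males in the interaction test over all 12 mice. The female minus the male log2 fold change, KO relative to wild type, was -5.07 (SE 0.97, edgeR adjusted p = 0.0474). The call held in only 1 of 12 fits that left out 1 mouse, the fit without female 1091. In the other fits the edgeR adjusted p reached 0.160, and limma-voom did not call it. Because all 3′ windows of Mup1 are shared, the call cannot be placed on Mup1 itself rather than on another copy. Mup1 was lower in KO than in wild type females 1089 and 1090, at the level of the KO females in wild type female 1091, and higher in all 3 KO males than in all 3 wild type males. The part of shared 3′ sequence and of the low female 1091 in this value was not tested beyond the fits without each mouse.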

How the results depend on the processing

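Of the recomputed log2 fold changes of members, 515 kept their direction and their side of the threshold, 20 kept the direction and lost the call, 14 gained one and 22 changed sign. The number of members called between genotypes in females was 0, but 1 by DESeq2, 2 without the filter, 1 in the fit of all 12 mice and 0 to 2 with 1 mouse left out (2 without 1091). In males it was 0, but 3 by DESeq2 and 5 without the filter (Mup15, Mup9, Mup1, Mup12 and Mup20). For the difference between the sexes it was 1, but 2 by DESeq2, 0 by limma-voom, 4 without the filter and 0 to 3 with 1 mouse left out (3 without 1091). The family sum of KO males was 7618 CPM with totals without Rn45s and Mup rows, whose smaller totals raise every value.

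The sign changes were all in values that were not called. With 1 mouse left out, the genotype difference in females ranged from -0.69 to 0.18 for Mup20 and from -0.57 to 0.082 for Mup3, and in males from -0.10 to 1.34 for Mup7 and from -0.062 to 0.25 for Mup3. The difference between the sexes ranged from -0.70 to 0.83 for Mup7, -0.87 to 1.73 for Mup11, -0.70 to 0.35 for Mup13 and -0.72 to 0.44 for Mup21. It was -0.16 for Mup7 by limma-voom and 0.20 for Mup11 by DESeq2. The cause of these moves was not tested.

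Counts over all genes moved by more than 1.5 times in these fits. In females 0 became 303 by DESeq2, 484 without the filter, 427 in the fit of all 12 mice and 936 without 1091. In males 0 became 6 by DESeq2, 29 without the filter and 3 without 1086. The difference between the sexes went from 25 to 264 by DESeq2, 325 without the filter and 0 to 522 with 1 mouse left out. Wild type males against females went from 130 to 338 by DESeq2, 536 without the filter, 505 in the fit of all 12 mice and 43 to 740 with 1 mouse left out. Siah2 KO males against females went from 1044 to 352 in the fit of all 12 mice and 486 to 1056 with 1 mouse left out. No paired analysis was possible because the mouse numbers of the groups are not shared. Members with a few counts per library, and separate values within the 14 members that share 3′ windows, are limited by depth and by shared 3′ sequence.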
